A study of Mus musculus with 11 samples.

Results

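The costimulatory and checkpoint genes Cd80, Cd83, Cd86, Cd274, Pdcd1lg2, Icosl and Havcr2 were followed in BV2 cells, which are transformed mouse microglia, after treatment with an amino-terminal fragment of human apolipoprotein E. The 7 genes were taken by symbol from the 36529 genes listed in the count files, and each was present in all 11 samples. In the first experiment, 3 samples were treated with nApoE4 (residues 1 to 151 of ApoE4) at 25 μg/ml for 5 h and compared with 3 untreated samples, named ControlA. In the second experiment, 2 samples were treated with nApoE3 (residues 1 to 151 of ApoE3) at 25 μg/ml for 5 h and compared with 3 untreated samples, named ControlB. All samples came from the same cell line, labelled as strain C57BL/6. The fragments carry cysteine (ApoE3) or arginine (ApoE4) at the position that separates these isoforms, and both had a His tag for purification. According to the methods untreated cells received conditioned media, whereas the labels name a PBS vehicle, and it is unclear which was used. Each fragment was used in its own experiment, so an effect of the fragment and an effect of the experiment cannot be told apart when the fragments are compared.

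A T cell that recognizes an antigen needs further signals from the cell that presents it. Cd80 and Cd86 give such a signal through CD28 and withdraw it through CTLA-4, Icosl signals through ICOS, and the PD-1 ligands Cd274 (PD-L1) and Pdcd1lg2 (PD-L2) restrain the T cell. Cd83 is a surface marker of mature dendritic cells that keeps MHC class II and Cd86 at the cell surface, and Havcr2 (TIM-3) is an inhibitory receptor that microglia and other myeloid cells carry as well as T cells. Microglia that respond to inflammatory signals are known to change the amounts of several of these molecules.

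In the mouse genome GRCm38, Cd86 (chr16:36603869-36666081, minus strand) and Cd80 (chr16:38455561-38496335) lie on the same chromosome, and Cd274 (chr19:29367455-29388095) and Pdcd1lg2 (chr19:29410919-29471161) are neighbors on the same strand. Icosl lies at chr10:78069302-78083913, Havcr2 at chr11:46454935-46481255 and Cd83 at chr13:43784775-43803132. The sequences before the RefSeq start sites of the members with the largest rise (Icosl and Cd274), of the neighbor of Cd274 and of the member that fell most (Havcr2) are shown, 5′ to 3′ on GRCm38.p6, and the sequence of Icosl ends where the GENCODE gene begins. Capitals mark the motif matches described below.
Icosl, chr10:78069118-78069301, + strand: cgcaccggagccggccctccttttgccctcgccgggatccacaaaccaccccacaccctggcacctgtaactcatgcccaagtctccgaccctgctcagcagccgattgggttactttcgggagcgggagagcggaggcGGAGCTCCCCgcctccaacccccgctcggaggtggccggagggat
Cd274, chr19:29367188-29367437, + strand: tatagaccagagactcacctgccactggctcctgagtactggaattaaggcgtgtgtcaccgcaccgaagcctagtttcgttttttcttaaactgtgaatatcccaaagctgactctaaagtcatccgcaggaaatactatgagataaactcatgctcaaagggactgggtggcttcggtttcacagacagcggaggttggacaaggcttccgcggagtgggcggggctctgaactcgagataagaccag
Pdcd1lg2, chr19:29410669-29410918, + strand: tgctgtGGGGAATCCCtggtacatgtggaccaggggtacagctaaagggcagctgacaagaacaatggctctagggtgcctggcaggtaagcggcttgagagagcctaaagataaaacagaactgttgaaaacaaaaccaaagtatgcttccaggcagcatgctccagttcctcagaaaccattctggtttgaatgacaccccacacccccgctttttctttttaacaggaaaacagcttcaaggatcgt
Havcr2, chr11:46454681-46454930, + strand: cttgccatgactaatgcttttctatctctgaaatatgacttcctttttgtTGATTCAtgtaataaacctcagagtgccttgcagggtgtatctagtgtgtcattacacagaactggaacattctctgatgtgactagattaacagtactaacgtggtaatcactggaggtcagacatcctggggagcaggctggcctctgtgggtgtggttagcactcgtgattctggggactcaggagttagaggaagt

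Stretches of 250 bases before to 50 bases after the start were on hand for 5 of the 7 members, and were searched on both strands for GAS (TTCNNNGAA), the ISRE core (TTTCNNTTTC, bound by interferon regulatory factors), AP-1 (TGANTCA) and NF-kB (its decamer). One NF-kB match began 111 bases before the start of Icosl and one 244 bases before the start of Pdcd1lg2. These distances and those below count from the RefSeq start, which for Icosl lies inside the GENCODE gene. One AP-1 match began 200 bases before the start of Havcr2 and one 42 bases before the RefSeq start of Cd80, whose stretch (chr16:38458683-38458982) lies inside the GENCODE gene and not before its start. The stretch of Cd274 held none of the 4 motifs. Of 32851 promoters of this length, 8.3% held a GAS match, 3.44% an ISRE core match, 7.81% an AP-1 match and 8.46% an NF-kB match, so that the matches are given as a description of these windows.

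The nApoE4 experiment held 39732710 to 44162511 counts on genes per sample and the nApoE3 experiment 55809688 to 69768666, and all 7 members had at least 51 counts in every sample. Levels are given as CPM, read counts scaled to library size by the TMM method over the 11 samples, and for comparisons between genes as CPM per kb of exon. A gene was called at an adjusted p-value under 0.05 (edgeR quasi-likelihood F test, two-sided, adjusted over all genes tested). The biological coefficient of variation, the spread between samples of a group, was 0.084 in the nApoE4 comparison and 0.026 in the nApoE3 comparison. A fold change can thus be called with nApoE3 and not with nApoE4, so counts of calls differ in sensitivity. The methods call the transcriptome measurements independent, but neither they nor the labels say whether the samples of a group were separate cultures, so the p-values may measure technical spread alone. In bulk RNA, fewer cells that express a gene and less RNA per cell cannot be told apart. Of the markers of microglia and macrophages, Cd68, Csf1r, Ptprc, Adgre1 and Spi1 were abundant, while P2ry12 was listed at 0 in every sample and Aif1 had at most 10 counts. Reads that overlapped more than 1 gene were listed apart, with the overlap mode unknown, so a listed 0 need not mean no expression. Trem2 had 2578 counts in ControlA replicate 1 and at most 220 in any other sample, and without that library 5 members were still called higher with nApoE4.

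Treatment with nApoE4 was accompanied by higher mRNA of 5 of the 7 members. Icosl rose 17.8-fold, Cd274 6.53-fold, Cd83 2.77-fold, Cd80 2.75-fold and Pdcd1lg2 2.22-fold, whereas Cd86 and Havcr2 did not pass the test. The same rule called 28.6% of the 14240 genes tested higher and 28.6% lower, and the median log2 fold change was 1.46 over the members and 0.0013 over all genes. With nApoE3, Cd274 rose 10.4-fold, Icosl 7.94-fold, Cd80 3.19-fold, Pdcd1lg2 1.74-fold and Cd83 1.19-fold, and Cd86 and Havcr2 fell to 0.766 and 0.574 of the untreated level. Here 33.1% of the 14817 genes tested were called higher and 34.6% lower, and the median log2 fold change was 0.80 over the members and -0.0026 over all genes. Every member passed the filter on low counts in each comparison.

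**Figure D1:**
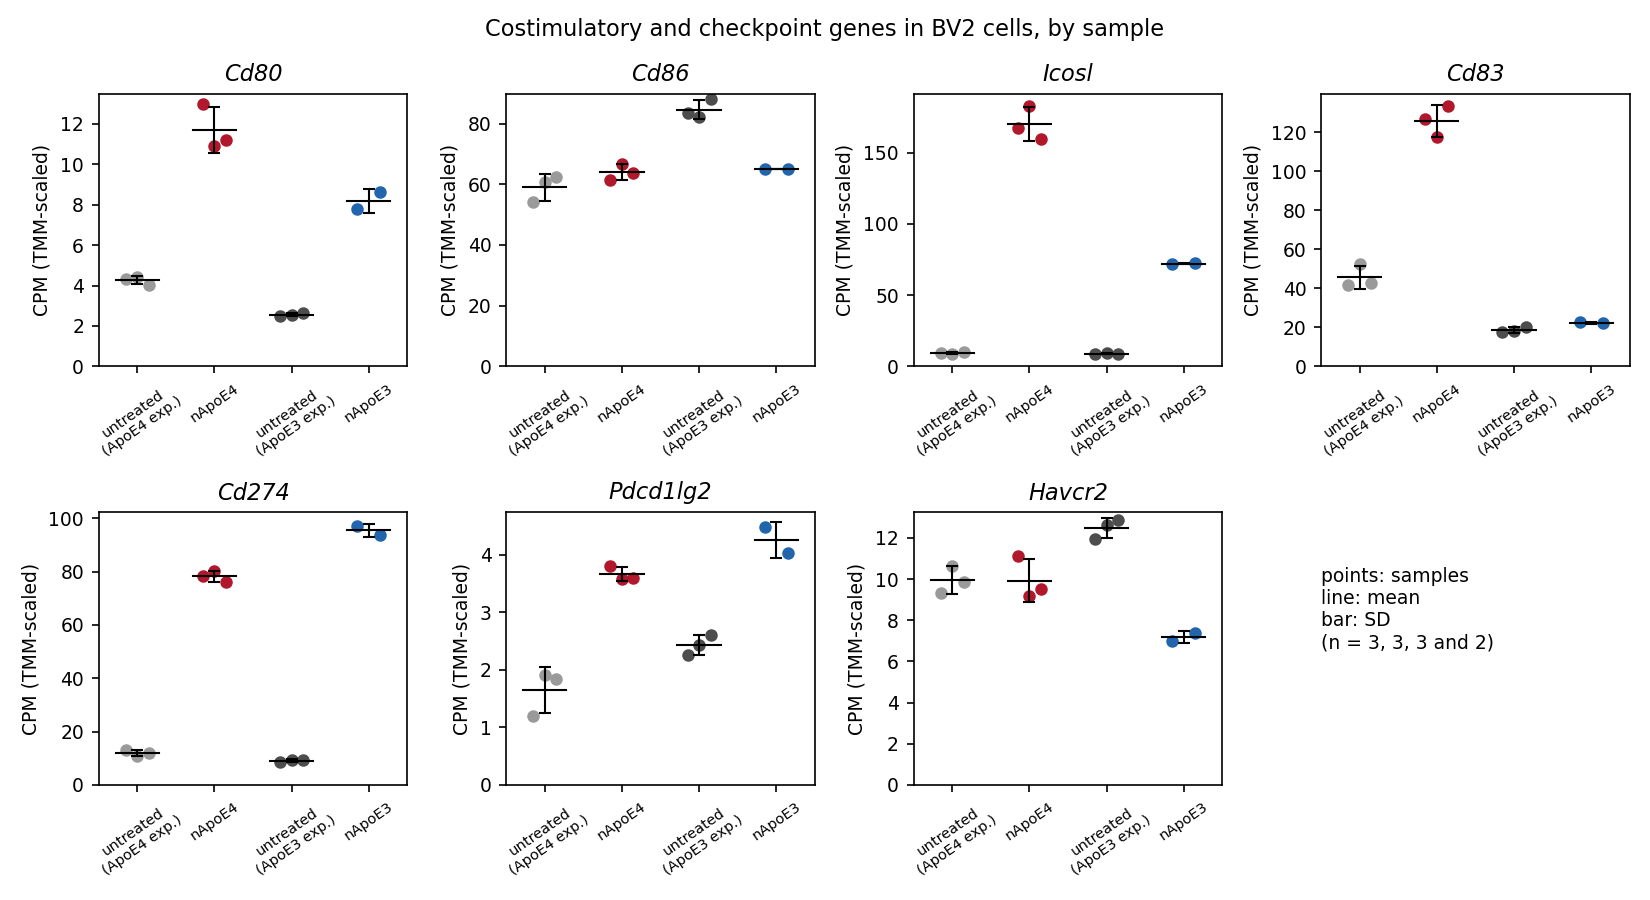
CPM (TMM-scaled, linear axes from 0) of the 7 members in each sample of the 4 groups, untreated cells in gray, nApoE4 in red and nApoE3 in blue, with the group mean as a line and the SD as a bar (n = 3, 3, 3 and 2). For Icosl and Cd274 the treated samples sit far above the untreated ones in both experiments, and for Havcr2 the 2 nApoE3 samples, at 6.98 and 7.40 CPM, sit below all others.

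Cd80, a ligand of both CD28 and CTLA-4, was at 4.32, 4.44 and 4.05 CPM in ControlA and at 13.0, 10.9 and 11.2 CPM with nApoE4. It was at 2.49, 2.54 and 2.63 CPM in ControlB and at 7.77 and 8.61 CPM with nApoE3. Treated and untreated samples did not overlap in either experiment. Its log2 fold change was 1.46 (SE 0.10, adjusted p = 1.48e-06) with nApoE4 and 1.68 (SE 0.095, adjusted p = 9.54e-09) with nApoE3. In RefSeq, 3.08% of the exon bases of Cd80 lie within the predicted gene Gm41453, which was listed at 0 in every sample.

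Cd86, the other ligand of these receptors, moved differently. Its level was 54.0, 60.7 and 62.2 CPM in ControlA and 61.4, 66.8 and 63.8 CPM with nApoE4, and the groups overlapped. The log2 fold change with nApoE4 was 0.12 (95% interval -0.031 to 0.28, adjusted p = 0.154), and it was 0.060 without ControlA replicate 1. In the second experiment it was at 83.5, 82.1 and 88.2 CPM in ControlB and at 65.1 CPM in both nApoE3 samples, and the treated samples lay below all untreated ones. There it fell by 0.38 on the log2 scale (SE 0.035, adjusted p = 8.28e-07). The nApoE3 samples lay within the range of the nApoE4 samples, while every ControlB sample lay above every ControlA sample.

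Icosl, the ligand of ICOS, had the largest fold change of the members with nApoE4. It was at 9.72, 8.81 and 10.2 CPM in ControlA and at 167.4, 182.8 and 159.4 CPM with nApoE4. It was at 8.91, 9.64 and 8.61 CPM in ControlB and at 71.9 and 72.5 CPM with nApoE3. The untreated samples of both experiments overlapped, and both treated groups were far above them. On the log2 scale Icosl rose by 4.15 (SE 0.085, adjusted p = 6.18e-10) with nApoE4 and 2.99 (SE 0.043, adjusted p = 4.57e-14) with nApoE3. In RefSeq, 5.06% of the exon bases of Icosl lie within the predicted gene Gm51775.

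Cd83 was at 41.7, 52.3 and 42.9 CPM in ControlA and at 126.9, 117.3 and 133.4 CPM with nApoE4. In the second experiment it was at 17.6, 18.1 and 20.3 CPM in ControlB and at 22.6 and 22.1 CPM with nApoE3. The treated samples lay above the untreated ones in both experiments, but in the second by a small step. Cd83 rose by 1.47 (SE 0.092, adjusted p = 7.26e-07) with nApoE4 and by 0.25 (SE 0.058, adjusted p = 0.00194) with nApoE3 on the log2 scale. The nApoE3 samples remained below every ControlA sample.

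Cd274, which encodes PD-L1, was at 13.3, 10.8 and 11.98 CPM in ControlA and at 78.2, 80.1 and 76.1 CPM with nApoE4. It was at 8.70, 9.35 and 9.40 CPM in ControlB and at 97.2 and 93.7 CPM with nApoE3. It was the member with the largest fold change with nApoE3, and its groups did not overlap in either experiment. The log2 fold change was 2.71 (SE 0.080, adjusted p = 4.57e-09) with nApoE4 and 3.38 (SE 0.041, adjusted p = 9.33e-15) with nApoE3. In RefSeq, 12.6% of the exon bases of Cd274 lie within the predicted gene Gm36043, which was listed at 0 in every sample, and whether reads there were counted on Cd274 is not known.

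Pdcd1lg2, which encodes PD-L2 and lies next to Cd274, was the member with the fewest counts. It was at 1.20, 1.92 and 1.84 CPM in ControlA (51 to 86 counts) and at 3.80, 3.59 and 3.60 CPM with nApoE4 (143 to 163 counts). It was at 2.27, 2.44 and 2.61 CPM in ControlB and at 4.49 and 4.04 CPM with nApoE3. The treated samples lay above the untreated ones in both experiments, and ControlA replicate 1 was lower than the other two. The log2 fold change was 1.15 (SE 0.18, adjusted p = 0.000420) with nApoE4 and 0.80 (SE 0.12, adjusted p = 7.51e-05) with nApoE3.

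Havcr2, the inhibitory receptor TIM-3, was at 9.35, 10.7 and 9.86 CPM in ControlA and at 11.1, 9.19 and 9.50 CPM with nApoE4. These groups overlapped, and the log2 fold change was 0.0021 (95% interval -0.22 to 0.22, adjusted p = 0.988), so that a change of more than 0.22 in either direction lies outside the interval. In the second experiment it was at 11.9, 12.6 and 12.9 CPM in ControlB and at 6.98 and 7.40 CPM with nApoE3, without overlap. There it fell by 0.80 on the log2 scale (SE 0.063, adjusted p = 2.10e-07).

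By the ranges of single samples, 5 members were higher and none was lower without overlap with nApoE4, where 31.5% of all genes tested were higher and 32.1% lower in this way. With nApoE3, 5 were higher and 2 lower without overlap, where 38.6% of all genes were higher and 39% lower.

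The responses to the fragments were compared as the difference of their log2 fold changes, with all 11 samples in the fit. Icosl, Cd83, Havcr2 and Cd86 had a higher log2 fold change with nApoE4 than with nApoE3, and Cd274 had a lower one. Over all 15287 genes tested, 14.4% were called in the first direction and 13.9% in the second. The difference was 1.15 for Icosl (95% interval 0.94 to 1.37, adjusted p = 3.21e-06) and 1.20 for Cd83 (0.92 to 1.48, adjusted p = 1.83e-05), or 2.23-fold and 2.30-fold on the linear scale. It was 0.79 for Havcr2 (0.53 to 1.06, adjusted p = 0.000358) and 0.50 for Cd86 (0.31 to 0.68, adjusted p = 0.000792). Both of these genes fell with nApoE3, and neither passed the test with nApoE4. It was -0.68 for Cd274 (-0.89 to -0.48, adjusted p = 0.000160). For Cd80 the difference was -0.23 (-0.52 to 0.058, adjusted p = 0.228) and for Pdcd1lg2 0.34 (-0.14 to 0.81, adjusted p = 0.294), and these intervals still allow a difference in either direction. Without ControlA replicate 1 the value of Pdcd1lg2 was 0.15, and with all libraries thinned to the depth of the smallest the value of Cd80 was -0.12.

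**Figure D2:**
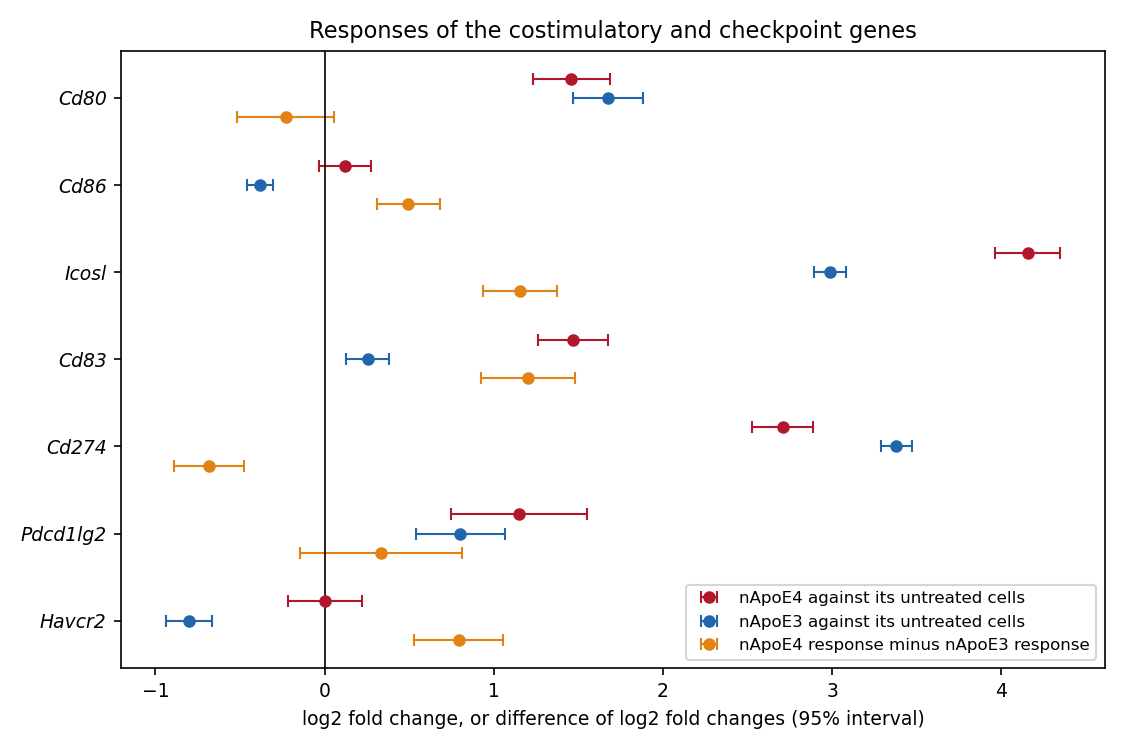
Log2 fold change of the 7 members against untreated cells with nApoE4 (red) and nApoE3 (blue), and the nApoE4 response minus the nApoE3 response (orange), as points with 95% intervals on a linear log2 axis. The differences of Icosl, Cd83, Havcr2 and Cd86 lie above 0, that of Cd274 at -0.68 lies below 0, and the intervals of Cd80 and Pdcd1lg2 include 0.

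The untreated cells of both experiments were not alike in these genes. Compared with ControlA, ControlB held less Cd83 (log2 difference -1.31, adjusted p = 9.08e-06), Cd80 (-0.76, adjusted p = 0.000193) and Cd274 (-0.41, adjusted p = 0.00363). It held more Cd86 (0.50, adjusted p = 0.000126), Havcr2 (0.31, adjusted p = 0.00445) and Pdcd1lg2 (0.54, adjusted p = 0.0285). The call of Pdcd1lg2 was lost without ControlA replicate 1 (0.36, adjusted p = 0.0613), without ControlB replicate 2 (0.55, adjusted p = 0.0618) and without ControlB replicate 3 (0.50, adjusted p = 0.0802). Icosl did not pass the test, with a log2 difference of -0.096 (95% interval -0.28 to 0.092, adjusted p = 0.318). This value was -0.15 without ControlA replicate 2, -0.050 without ControlA replicate 3 and -0.056 without ControlB replicate 3. By the same test 34.4% of 14249 genes were called higher and 34.9% lower in ControlB, and by sample ranges 3 members were higher and 3 lower without overlap, where 38.2% and 36% of all genes were.

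The order of the members by level per kb of exon shifted with treatment. In ControlA, Cd83 (17.7 ± 2.27 CPM per kb, SD, n = 3) and Cd86 (16.1 ± 1.19) led and overlapped each other. Havcr2 (3.66 ± 0.244) and Cd274 (3.32 ± 0.338) followed and also overlapped, and Icosl (2.07 ± 0.151), Cd80 (1.15 ± 0.0538) and Pdcd1lg2 (0.843 ± 0.202) came below them without overlap. With nApoE4, Cd83 stayed first at 48.9 ± 3.15 CPM per kb, and Icosl came to the second place at 36.8 ± 2.57, above Cd274 (21.6 ± 0.551) and Cd86 (17.5 ± 0.742). Havcr2 (3.65 ± 0.377) and Cd80 (3.15 ± 0.304) overlapped below these, and Pdcd1lg2 (1.87 ± 0.0611) remained last.

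In ControlB, Cd86 led at 23.1 ± 0.867 CPM per kb (SD, n = 3), ahead of Cd83 at 7.26 ± 0.559 and Havcr2 at 4.59 ± 0.176. Cd274 (2.53 ± 0.109), Icosl (1.96 ± 0.116), Pdcd1lg2 (1.24 ± 0.0872) and Cd80 (0.689 ± 0.0183) followed, and no neighbors in this order overlapped. With nApoE3, Cd274 led at 26.3 ± 0.672 CPM per kb (n = 2), and Cd86 (17.8 ± 0.0010), Icosl (15.6 ± 0.0871) and Cd83 (8.68 ± 0.156) came next. Below Havcr2 (2.64 ± 0.111), Cd80 (2.21 ± 0.160) and Pdcd1lg2 (2.17 ± 0.161) overlapped. The first place thus belonged to Cd83 with nApoE4 and to Cd274 with nApoE3.

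**Figure D3:**
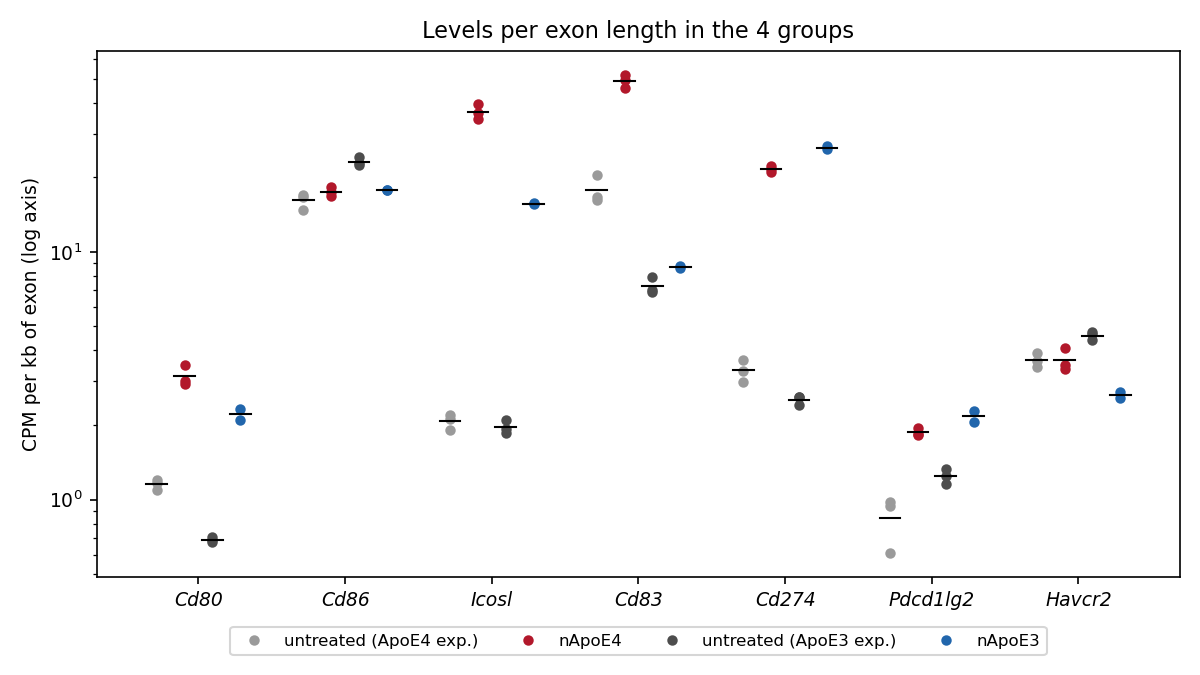
Level of each member per kb of exon (CPM per kb, log axis) in every sample of the 4 groups, with the group mean as a line. Cd83 and Icosl are the highest members with nApoE4, at means of 48.9 and 36.8 CPM per kb, and Cd274 is the highest with nApoE3, at 26.3.

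Summed over the 7 members, the level per kb was 44.9 ± 2.99 in ControlA and 133.5 ± 0.257 with nApoE4, and 41.4 ± 1.61 in ControlB and 75.5 ± 0.630 with nApoE3 (SD). Cd86 made up 35.9% ± 1.76 of this sum in ControlA and 13.1% ± 0.544 with nApoE4. It made up 55.9% ± 0.816 in ControlB and 23.6% ± 0.198 with nApoE3. Icosl rose from 4.64% ± 0.571 to 27.6% ± 1.88 of the sum in the first experiment and from 4.75% ± 0.412 to 20.7% ± 0.288 in the second. Cd274 accounted for 16.2% ± 0.382 with nApoE4 and for 34.9% ± 0.599 with nApoE3. These shares describe mRNA per exon length and were not tested.

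The ligands of CD28 and CTLA-4, the PD-1 ligands, and the pair of Icosl and Cd274, which do not share a receptor, were also set against each other per kb. The ratio of Cd86 to Cd80 was 14.0 ± 1.46 in ControlA and 5.59 ± 0.729 with nApoE4, and 33.5 ± 0.683 in ControlB and 8.06 ± 0.584 with nApoE3. In both experiments the treated samples therefore held relatively more Cd80. The ratio of Cd274 to Pdcd1lg2 was 4.19 ± 1.58 in ControlA and 11.6 ± 0.489 with nApoE4, and 2.04 ± 0.0721 in ControlB and 12.1 ± 0.592 with nApoE3. The ratio of Icosl to Cd274 was 0.626 ± 0.0470 and 1.70 ± 0.0767 in the first experiment, and 0.776 ± 0.0511 and 0.594 ± 0.0184 in the second. Icosl thus exceeded Cd274 per kb in the nApoE4 samples and remained below it in the nApoE3 samples.

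The receptors of the members were measured in the same libraries. Of Cd28, Ctla4, Icos and Pdcd1, 3 had enough counts to test in each experiment, and with each fragment 1 was called higher and 2 lower. Icos, called lower with both fragments, had 16 to 29 counts in ControlA and 8 to 14 with nApoE4. It had 17 to 30 counts in ControlB and 2 to 7 with nApoE3. Icos passed the filter on low counts only through the untreated samples, so its calls as lower were nearly fixed in advance. Over all genes 28.6% were called higher and 28.6% lower with nApoE4, and 33.1% and 34.6% with nApoE3. These shares are the background for the counts of every list below. The median log2 fold change of the receptors was -1.03 with nApoE4 and -1.24 with nApoE3, against 0.0013 and -0.0026 over all genes. With 3 genes tested, these medians are the value of Icos with nApoE4 and that of Cd28 with nApoE3. Cd28 fell by 2.22 on the log2 scale with nApoE4 (17.0 ± 1.09 to 3.64 ± 0.386 CPM, adjusted p = 9.01e-08) and by 1.24 with nApoE3 (18.6 ± 0.852 to 7.96 ± 1.22 CPM, adjusted p = 2.53e-08). Pdcd1, which encodes PD-1, rose from 0.431 ± 0.0589 to 2.18 ± 0.480 CPM with nApoE4 (log2 fold change 2.33, adjusted p = 2.10e-05) and from 0.290 ± 0.115 to 2.71 ± 0.0533 CPM with nApoE3 (3.22, adjusted p = 1.40e-07). Markers that define T cells were nearly absent, with Cd8a listed at 0 and Cd3e and Cd3g at no more than 2 counts in every sample. The summed level of the 8 T cell markers was 1.88 to 2.31 CPM in ControlA and 2.82 to 3.75 with nApoE4, and 2.24 to 3.62 CPM in ControlB and 5.0 to 5.76 with nApoE3. Most of it came from Cd4 and Lck, a kinase that rose with both fragments (log2 fold change 1.37, adjusted p = 0.00120, and 1.15, adjusted p = 0.000531).

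Of the TIM-3 ligands and TIM relatives, 2 of 6 had enough counts, and in each experiment 1 was called higher and 1 lower. Lgals9 (galectin-9) rose from 19.5 ± 1.62 to 53.6 ± 0.876 CPM with nApoE4 (log2 fold change 1.47, adjusted p = 9.93e-08) and from 21.4 ± 1.14 to 114.3 ± 1.89 CPM with nApoE3 (2.41, adjusted p = 1.01e-13). Hmgb1, a nuclear protein that binds TIM-3 when released, fell by 0.45 (adjusted p = 0.000320) and by 0.21 (adjusted p = 4.56e-05) on the log2 scale. The ligand Lgals9 and the receptor Havcr2 thus moved in opposite directions with nApoE3. The median log2 fold change of these genes was 0.51 with nApoE4 and 1.10 with nApoE3.

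In a list of other B7 and butyrophilin ligands, which also held the receptor Btla, 3 of 10 genes had enough counts. With nApoE4 1 was called higher (median log2 fold change 0.28), against 28.6% of all genes. With nApoE3 3 were called higher (median 0.65), against 33.1% of all genes. Cd276 (B7-H3) rose by 0.31 with nApoE4 (adjusted p = 0.00430) and by 0.99 with nApoE3 (adjusted p = 3.14e-08). Btla, an inhibitory receptor and not a ligand, rose with nApoE3 (0.65, adjusted p = 9.82e-07), and its value with nApoE4 was 0.28 (adjusted p = 0.0811). With 3 genes tested, both medians are the values of Btla. Ildr2 passed with nApoE3 at 0.31 (adjusted p = 0.0359), and this call was lost without ControlB replicate 1 or 2 and without either nApoE3 sample, with values of 0.22 to 0.35. Vsir, which encodes the checkpoint VISTA, was listed at 0 in all 11 samples, and whether its reads were tallied elsewhere is not known.

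Of 14 other myeloid checkpoint ligands and receptors, 12 had enough counts. With nApoE4 8 were called higher and 3 lower (median log2 fold change 0.99), where 28.6% of all genes went each way. With nApoE3 9 were called higher and 1 lower (median 0.82), where 33.1% and 34.6% of all genes were. Pilra, an inhibitory receptor for sialylated ligands, rose by 2.03 with nApoE4 and by 3.42 with nApoE3 on the log2 scale (adjusted p = 2.32e-09 and 4.53e-15). Siglece, a sialic acid-binding inhibitory receptor, rose by 1.85 and 2.57 (adjusted p = 4.56e-05 and 1.01e-09). Lilrb4a, an inhibitory immunoglobulin-like receptor with the near-identical copy Lilr4b, rose by 2.16 and 2.40 (adjusted p = 8.86e-09 and 9.64e-14), and reads of these copies may have been split between them.

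The TNF family of costimulators held the largest response of the genes around the members. Of 8 genes, 5 had enough counts with nApoE4, of which 4 were called higher and 1 lower (median log2 fold change 1.55). With nApoE3 6 had enough counts, of which 4 were called higher (median 1.41). Tnfsf4 was called higher with both fragments (0.0887 to 0.369 and 0.108 to 0.270 CPM), and Tnfsf8 with nApoE3 (0.153 to 0.428 CPM). Neither gene had enough counts to test between the untreated groups, so these calls depended on the treated samples and were nearly fixed in advance. Tnfsf14, called lower with nApoE4 (0.601 to 0.199 CPM), passed the filter there through the ControlA samples. Its call was nearly fixed in advance as well. Over all genes 28.6% were called in each direction with nApoE4, and 33.1% higher and 34.6% lower with nApoE3. Cd40, the receptor through which T cells license antigen-presenting cells, rose from 15.2 ± 0.0749 to 862.2 ± 16.9 CPM with nApoE4 (log2 fold change 5.83, adjusted p = 5.21e-11) and from 11.6 ± 1.12 to 421.6 ± 30.7 CPM with nApoE3 (5.19, adjusted p = 5.55e-15). Tnfsf9, the ligand of 4-1BB, rose by 1.55 with each fragment (adjusted p = 1.14e-07 and 8.18e-09). Tnfsf18, the ligand of GITR, passed with nApoE4 at 0.53 (adjusted p = 0.0229), and this call was lost without ControlA replicate 1 or 3 or nApoE4 replicate 2 or 3, with values of 0.45 to 0.54.

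MHC class II presents the antigen that costimulation accompanies. Of its 8 genes, 3 had enough counts with nApoE4, of which 2 were called higher (median log2 fold change 1.98), against 28.6% of all genes. With nApoE3 2 had enough counts and both were called higher (median 0.88), against 33.1% of all genes. Cd74, the invariant chain, rose by 1.98 with nApoE4 (adjusted p = 7.09e-08) and by 1.66 with nApoE3 (adjusted p = 6.64e-13) on the log2 scale. Ctss, a protease that trims this chain, rose by 0.10 with nApoE3 (adjusted p = 0.000779), and its log2 fold change with nApoE4 was -0.027 (adjusted p = 0.831). Ciita, the class II transactivator, was at 0.0754 ± 0.0377 CPM in ControlA and at 0.646 ± 0.0613 CPM with nApoE4. It passed the filter on low counts only through the nApoE4 samples, so its call as higher was nearly fixed in advance. The class II chain genes H2-Ab1 and H2-Eb1 were listed at 0 in all 11 samples, and H2-Aa had 1 count in a single nApoE4 sample and 0 in all others. Whether reads of these chain genes were tallied elsewhere is not known.

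Of 16 regulators known to act on these genes, 15 were listed and 14 had enough counts. With nApoE4 8 were called higher and 2 lower (median log2 fold change 0.57), where 28.6% of all genes went each way. With nApoE3 11 were called higher and 2 lower (median 1.03), where 33.1% and 34.6% of all genes were. Irf1, an interferon-induced activator of Cd274, rose by 3.71 with nApoE4 (adjusted p = 4.08e-10) and by 2.44 with nApoE3 (adjusted p = 6.28e-13). The NF-kB genes Relb and Nfkb1 rose by 3.30 and 2.26 with nApoE4 (adjusted p = 4.57e-10 and 3.57e-09) and by 1.92 and 2.13 with nApoE3 (adjusted p = 2.10e-11 and 4.69e-15). Irf8, among those called lower, fell from 126.0 to 46.3 CPM with nApoE4 (log2 fold change -1.44, adjusted p = 2.46e-08). With nApoE3 Irf8 fell from 137.4 to 71.9 CPM (-0.94, adjusted p = 2.74e-10).

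**Figure D4:**
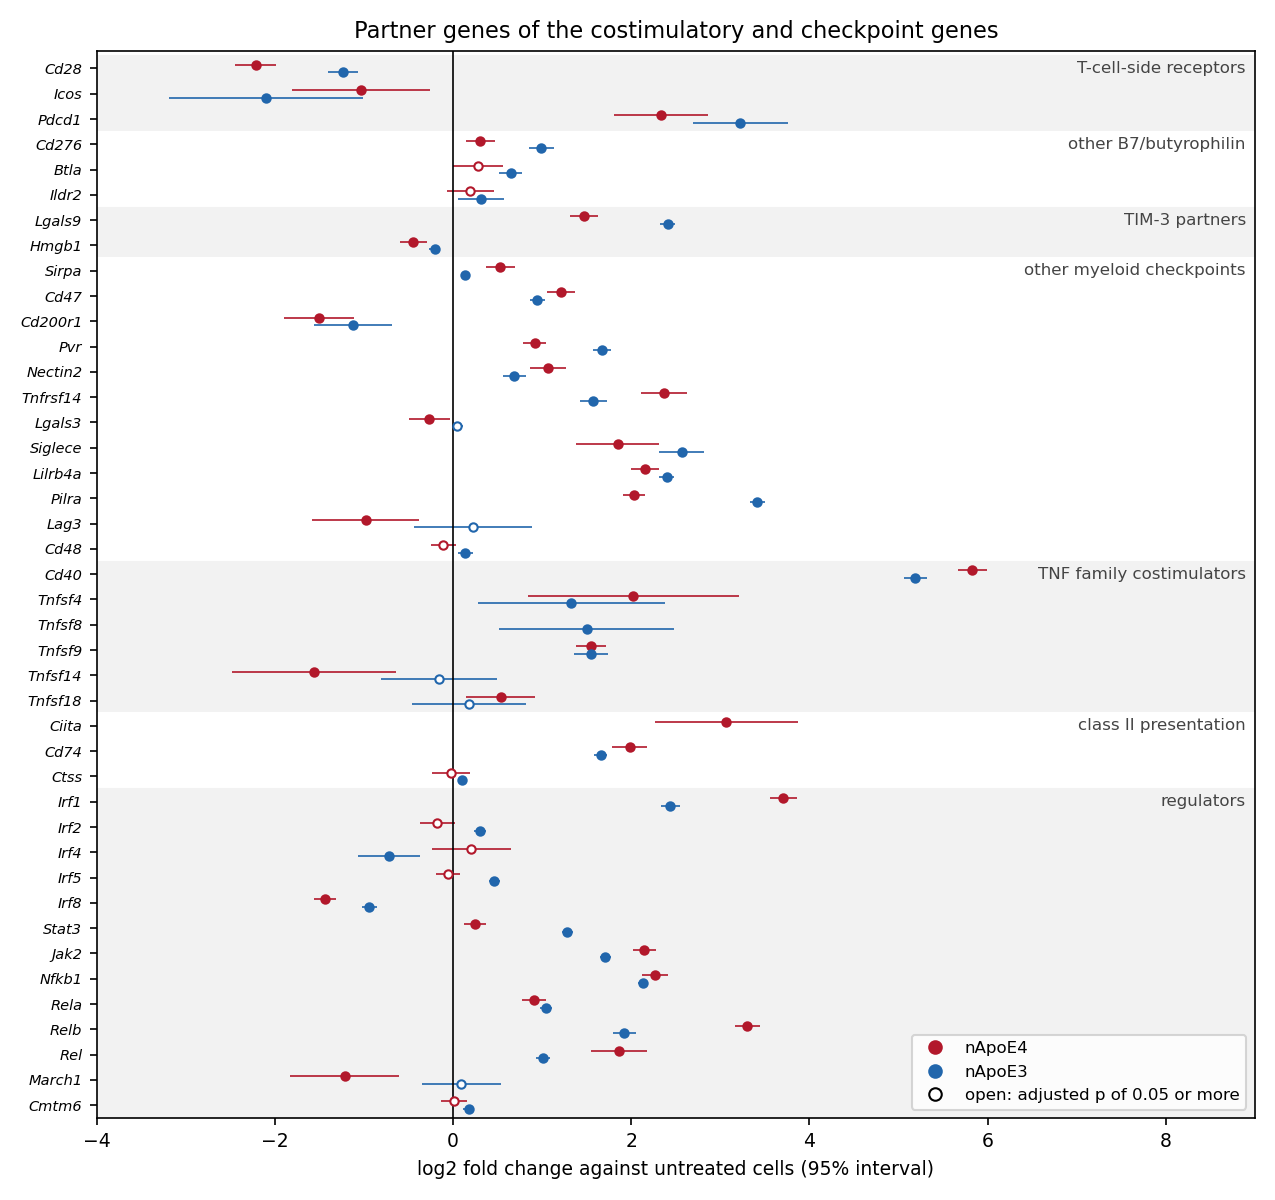
Log2 fold change against untreated cells, with 95% intervals, of genes tested in the lists of receptors, other ligands, class II genes and regulators, with nApoE4 in red and nApoE3 in blue, open points marking an adjusted p-value of 0.05 or more. Cd40 lies furthest to the right at 5.83 and 5.19, and Cd28 lies left of 0 with both fragments.

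Several members are also markers of dendritic cells, whose 7 other markers summed to 75.2 to 79.9 CPM in ControlA, 74.0 to 80.0 with nApoE4, 74.7 to 76.2 in ControlB and 71.4 to 71.5 with nApoE3. Of these 7 markers 5 had enough counts, of which 3 were called higher and 1 lower with nApoE4 and 2 higher and 2 lower with nApoE3. Over all genes 28.6% were called in each direction with nApoE4, and 33.1% higher and 34.6% lower with nApoE3. Nearly all of the sum of the dendritic cell markers was Itgax and Zbtb46, which macrophages can express too. Itgax fell by 0.21 with nApoE4 (adjusted p = 0.0238) and by 0.14 with nApoE3 (adjusted p = 0.00435), and the first of these calls was lost without ControlA replicate 1 or nApoE4 replicate 1 or 3, with values of -0.15 to -0.23. Zbtb46 rose by 0.50 with nApoE4 (adjusted p = 0.000181), and its fall of 0.13 with nApoE3 (adjusted p = 0.0196) was lost without ControlB replicate 2 or either nApoE3 sample, with values of -0.10 to -0.13. Xcr1 rose by 1.29 and 2.93 (adjusted p = 0.00535 and 6.51e-08) from 0.426 to 1.04 and from 0.261 to 2.00 CPM. Ccr7, a chemokine receptor of mature dendritic cells, had 0 or 1 count in the ControlA samples and 14 to 25 with nApoE4. It had 0 to 2 counts in ControlB and 17 and 32 with nApoE3. Ccr7 passed the filter on low counts only through the treated samples, so its calls as higher were nearly fixed in advance. Its treated means were 0.475 and 0.426 CPM. Clec9a was listed at 0 in every sample. The 12 markers of microglia and macrophages summed to 3332 to 3643 CPM in ControlA, 3617 to 3711 with nApoE4, 2520 to 2625 in ControlB and 3127 to 3146 with nApoE3. With nApoE4 9 of them had enough counts, of which 2 were called higher and 4 lower, where 28.6% of all genes went each way. With nApoE3 10 had, of which 5 were called higher and 4 lower, where 33.1% and 34.6% of all genes were. Ptprc rose by 0.95 and 0.87 (adjusted p = 9.73e-07 and 2.57e-12), Spi1 rose by 1.35 and 1.01 (adjusted p = 2.19e-07 and 2.74e-11), and Tmem119 fell by 0.98 and 2.40 (adjusted p = 0.000595 and 2.82e-09). Itgam fell by 0.37 and 0.30 (adjusted p = 0.000623 and 1.90e-06), and Tyrobp by 0.29 and 0.16 (adjusted p = 0.0339 and 0.000434), where the call with nApoE4 was lost without ControlA replicate 1 or nApoE4 replicate 1 or 2, with values of -0.26 to -0.31, and its value was -0.18 without ControlA replicate 2. Cd68 fell by 0.27 with nApoE4 (adjusted p = 0.00807) and rose by 0.18 with nApoE3 (adjusted p = 2.96e-05). Csf1r fell by 0.15 with nApoE3 (adjusted p = 4.82e-05) and was at -0.15 with nApoE4 (adjusted p = 0.0802), where the spread was larger. Adgre1 rose by 0.67 with nApoE3 (adjusted p = 2.47e-11) and was at -0.0031 with nApoE4 (adjusted p = 0.973). The remaining marker called higher with nApoE3 was Cx3cr1, which had at most 43 counts in any sample.

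Markers of other cell types were mostly low. The 5 B cell markers summed to at most 1.67 CPM in any sample, with Ms4a1 listed at 0, and of the 3 with enough counts 1 was called higher and 1 lower with each fragment. Pax5, a B cell transcription factor, had 1 to 7 counts in ControlA and 11 to 16 with nApoE4 (log2 fold change 1.98). It had 3 to 4 counts in ControlB and 27 to 31 with nApoE3 (3.07). The value with nApoE4 was 2.77 without ControlA replicate 3. Pax5 also passed the filter on low counts only through the treated samples, so its calls as higher were nearly fixed in advance. Cd79b fell by 1.71 with nApoE4 (adjusted p = 0.000181) and by 1.33 with nApoE3 (adjusted p = 0.0120), a call lost without either nApoE3 sample (-1.31 and -1.35). It had 13 to 27 counts in ControlB and 8 in each nApoE3 sample. In the nApoE3 comparison Cd79b passed the filter only through the untreated samples, so its call as lower was nearly fixed in advance. The 4 astrocyte markers summed to 1.20 to 1.39 CPM in ControlA and 6.02 to 7.03 with nApoE4, and to 1.05 to 1.22 in ControlB and 4.37 to 4.53 with nApoE3, almost all of it Slc1a2 (log2 fold change 2.69, adjusted p = 4.43e-07, and 2.05, adjusted p = 5.35e-08). The 4 neuron markers reached 6.27 CPM, with Tubb3 higher with nApoE4 (1.43, adjusted p = 2.27e-05). Among oligodendrocyte markers, Mbp fell by 0.74 with nApoE4 (adjusted p = 0.00101). The part of these markers in the changes of the members was not tested.

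Each member was also matched to the genes whose log2 CPM followed it most closely over the 11 samples, out of 11683 genes. These samples share treatments and experiments, so the values describe the 4 groups. The closest genes were Malt1 for Icosl (Pearson's r = 0.999), Tnfrsf1b for Cd274 (0.998), Lilr4b for Cd80 (0.995), Gm4890 for Cd83 (0.993), Rtn2 for Pdcd1lg2 (0.973), Mpp7 for Cd86 (0.969) and Tmem106b for Havcr2 (0.957).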

How the data were processed

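RNA from 11 samples of BV2 cells was sequenced as single-end reads of 75 bp. Per the submitters' processing notes the authors used Trim Galore 0.5.0, FastQC 0.11.8, HISAT2 2.1.0 with GRCm38.p6 and HTSeq 0.11.0, and deposited raw counts of reads per gene. The annotation release, strand setting and overlap mode are not given in the sources used here. Samples were grouped by their labels, and the 7 members and all other lists were chosen with earlier results of these data known. Of the reads tallied by HTSeq, 3.24 to 3.56% overlapped more than 1 gene and 11.7 to 13.2% were tallied as aligning to more than 1 place, both listed apart from the genes.

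The tests used edgeR 4.0.16 in R 4.3.3 (filterByExpr, TMM, quasi-likelihood F test, Benjamini-Hochberg adjustment over all genes tested, threshold 0.05). Each fragment was compared with its own untreated samples, the responses were compared as an interaction over the 11 samples, and the untreated groups were compared with each other. SE was taken as the absolute log2 fold change over √F, and intervals are 95% intervals. CPM per kb uses the union of exons in GENCODE vM21 for GRCm38, and sequences are from RefSeq, in which Cd83 and Cd86 had no entry in the table used. From each list up to 3 genes are named, those with the largest absolute log2 fold change with either fragment among genes past the threshold with a group mean of at least 1 CPM. Icos, Vsir, Ciita, class II chain genes, Tnfsf4, Tnfsf8, Tnfsf14, Irf8, Trem2, Cd68, Itgam, Tyrobp, Csf1r, Adgre1, Cx3cr1, Pax5, Ccr7 and markers at 0 were added after their values were seen. Tests were checked on simulated data. At the depth of these libraries 3 counts correspond to less than 0.1 CPM, and depth covers counting error only.

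Alternatives were DESeq2 1.42.0, its size factors in edgeR, a filter of at least 1 count, a filter of at least 10 counts, thinning to the smallest library, all samples in one fit, the replicate number as a block and leaving out each sample in turn. Values of some genes in these lists are not reported here.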

Additional observations from a re-analysis of the deposited data

Results flagged for a closer look

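The difference between the response to nApoE4 and the response to nApoE3 passed the test (edgeR interaction over 11 samples, adjusted p under 0.05) for 5 of the 7 members. On the log2 scale it was 1.20 for Cd83, 1.15 for Icosl, 0.79 for Havcr2, 0.50 for Cd86 and -0.68 for Cd274. Over all 15287 genes tested, 14.4% were called higher and 13.9% lower in this comparison. Each of the 5 was called in the same direction under every one of the 17 alternatives. For Havcr2 and Cd86 the nApoE4 comparison did not pass the test and the nApoE3 comparison showed a fall. Each fragment was used in its own experiment, and the untreated cells differed in 4 of these 5 genes, so that fragment and experiment cannot be told apart.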

How the results depend on the processing

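The calls of the members with nApoE3 and for the difference between the fragments were the same in all 84 and 119 recomputed values, and 5 members were called higher with nApoE4 under every alternative. The log2 fold change of Havcr2 with nApoE4, which lies near 0, turned negative with genes of at least 1 count (-0.019), with all 11 samples in one fit (-0.0031) and with the replicate block (-0.00088), and ranged from -0.086 to 0.049 when 1 sample was left out (-0.0446, -0.0102 and -0.0858 without ControlA replicate 1, ControlA replicate 3 and nApoE4 replicate 1), never past the threshold. Members called higher in ControlB were 2 or 3 when 1 sample was left out, through Pdcd1lg2. The other genes that turned direction had not passed the test. When 1 sample was left out, Ctss with nApoE4 ranged from -0.0904 to 0.062 (0.034 without nApoE4 replicate 2), Mbp with nApoE3 from -0.18 to 0.061 and Tnfsf18 with nApoE3 from -0.30 to 0.54 (-0.0099 without ControlB replicate 2), and Mbp was 0.0040 after thinning. Adgre1 with nApoE4 was 0.0071 with genes of at least 10 counts and ranged from -0.064 to 0.043 when 1 sample was left out (0.029 without nApoE4 replicate 1). Of 920 values for the other genes, 872 kept their call, 33 lost it, 6 gained it and 9 turned.

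The samples share only a replicate number: the correlation of same-numbered deviations was -0.039, -0.17 and -0.062 between ControlA and nApoE4 and -0.0079 and -0.013 between ControlB and nApoE3. With the replicate block, genes called in the difference between the fragments fell from 2208 to 1150 higher and from 2123 to 1157 lower, while 4 members were called higher and 1 lower as without it, and no call of a member changed. The calls of Tnfsf18 (0.54), Itgax (-0.22) and Tyrobp (-0.28) with nApoE4 were lost with it, and that of Tyrobp with nApoE3 was lost with all 11 samples in one fit (-0.15). Of 6 samples of ControlA and nApoE4, 0 correlated best with the sample of the same number in the other group. The cause was not tested. Depth limits Pdcd1lg2 most among the members, at 51 to 261 counts per sample. Leaving out 1 nApoE3 sample leaves a single sample, which is then assumed to vary like the controls.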
